A study of Homo sapiens with 18 samples.

Results

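The comparison described here asked how the effect of a methionase on poly-A RNA differed between 24 h and 12 h of transfection in HEK293T cells, an established line derived from human embryonic kidney. It used 12 of the 18 libraries of the study, 3 in each of 4 groups. All cells were labelled wild type (WT) in genotype and received the vehicle DMSO. The groups were cells transfected for 24 h with MethionaseNLS, cells transfected for 24 h with the empty vector pLEX, cells transfected for 12 h with MethionaseNLS and cells transfected for 12 h with pLEX. The quantity tested was the methionase minus vector difference at 24 h, less the same difference at 12 h, on the log2 variance-stabilised scale that the authors deposited. A positive value means that a gene stood higher against the vector at 24 h than at 12 h. Each of 17755 genes that passed a filter on low values, out of 37096 in the table, was a member of the comparison. The 6 libraries treated with 5 µM Vps34-IN1, an inhibitor of the lipid kinase VPS34, entered only the estimate of the spread and the mean on which genes were filtered.

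Methionase breaks down methionine, the amino acid that starts every new protein and from which cells make S-adenosylmethionine, the methyl donor for DNA, RNA and histone methylation and the source of the aminopropyl groups of polyamines. Cells that lack an amino acid slow translation through the kinase GCN2 and make more of the transcription factor ATF4, which induces amino acid transporters and synthesis enzymes. Misfolded protein in the endoplasmic reticulum (ER) sets off the ER unfolded protein response, which induces ER chaperones. No group carried an inactive enzyme or another foreign protein, so methionase differences cannot be told apart from those of expressing a foreign nuclear protein. The labels do not say how long DMSO was present in each group, nor that replicates were separate cultures; the spread behind each p-value is therefore that of these libraries and could be only technical.

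The 12 libraries held 18850736 to 20825232 reads in genes, and all carried the same batch label. The first principal component held 58.6% of their variance and placed the methionase libraries at 24 h between 28.98 and 33.98, against -19.22 to -4.65 for the other 9. All 10 HEK293 markers were detected, with PAX2 lowest at 111.7 to 190.3 normalised reads, and their summed level was 34180 to 43650 in methionase cells at 24 h, 28320 to 29710 in vector cells at 24 h, 31880 to 32980 in methionase cells at 12 h and 29500 to 33550 in vector cells at 12 h. The 15 markers of other cell types summed to 774.1 to 916.5, 754.1 to 875.9, 758.8 to 814.8 and 708.9 to 736.5 normalised reads in the same order of groups, most of it COL1A1, and CD3E, KRT5, TP63 and MYH7 had a median of 0.

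Limma called 2071 genes in the interaction at an adjusted p below 0.05 (Benjamini-Hochberg over 17755 genes), 11.7% of those tested. Of these, 947 (5.33%) were higher and 1124 (6.33%) lower. With the libraries set to equal medians the split turned to 1431 higher and 722 lower, a scaling that moved the median of all genes by 0.05. A difference of at least 1 on the log2 scale was reached by 83 higher genes (0.467%) and 8 lower genes (0.0451%). The count moved with single libraries: it was 1276 without methionase 12 h replicate 1, 1325 without vector 24 h replicate 1, 1436 without methionase 24 h replicate 2, 1453 without vector 12 h replicate 2, 1464 without vector 24 h replicate 2 and 1486 without vector 12 h replicate 1, and between 1617 and 2413 without each of the other 6. In each of these fits, no gene shared with the 2071 had changed direction.

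At 24 h methionase differed from the vector in 6955 genes (39.2%), 3210 higher (18.1%) and 3745 lower (21.1%). The 12 h comparison had 385 such genes (2.17%), 121 higher (0.681%) and 264 lower (1.49%). Among the 2071 interaction genes, 1915 were called at 24 h and not at 12 h. Another 89 were called in the same direction at both times and were all further from the vector at 24 h, 23 of them higher and 66 lower. Only 2 were called in opposite directions, 8 were called at 12 h alone and 57 at neither time. The median size of the methionase difference in the 2071 was 0.51 at 24 h and 0.10 at 12 h, against 0.16 and 0.09 over all genes tested. These 2071 were chosen by the difference between those values, so the medians describe them and test nothing.

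**Figure D1:**
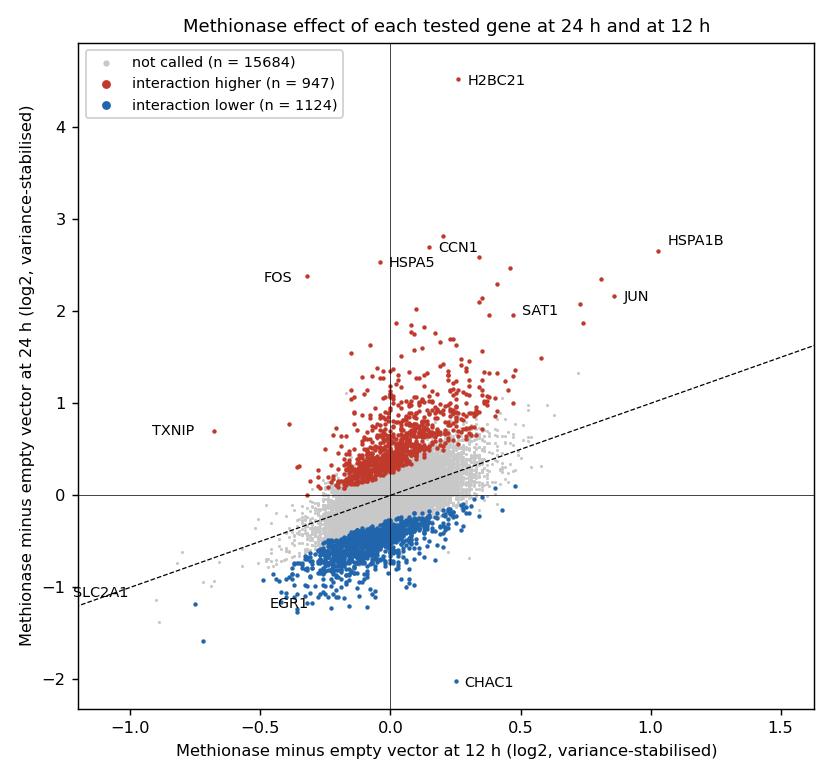
Methionase minus empty vector at 24 h (vertical axis) against the same difference at 12 h (horizontal axis), both in log2 on the variance-stabilised scale, for each of 17755 tested genes; red genes were called higher and blue genes lower in the interaction, and the dashed line marks equal effects. The 947 red and 1124 blue genes spread far up and down the vertical axis while most lie near 0 on the horizontal one; H2BC21 stands at 4.52 at 24 h and 0.26 at 12 h.

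Promoters of 4 of the genes with the largest differences in either direction are shown, from the histone, ER stress, immediate early and amino acid response genes, with the letters of the motifs searched. Each line gives the 250 bases before the annotated start, 5′ to 3′ on the gene's strand, from RefSeq (GRCh38.p14). Capitals mark letters of the motifs searched on both strands: the ER stress element (named by its usual name), the cAMP response element TGACGTCA, the AP-1 site TGANTCA, the E-box CACGTG, the C/EBP-ATF response element (CARE) TGATGNAA, the heat shock element (named by its usual name), TATAAA and CCAAT. The ER stress element begins with a CCAAT box and so always overlaps one.
H2BC21: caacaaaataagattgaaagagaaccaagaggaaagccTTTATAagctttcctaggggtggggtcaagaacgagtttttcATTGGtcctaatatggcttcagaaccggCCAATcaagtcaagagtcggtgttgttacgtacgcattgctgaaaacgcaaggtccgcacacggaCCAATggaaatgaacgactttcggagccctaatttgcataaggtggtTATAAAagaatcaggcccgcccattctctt
HSPA5: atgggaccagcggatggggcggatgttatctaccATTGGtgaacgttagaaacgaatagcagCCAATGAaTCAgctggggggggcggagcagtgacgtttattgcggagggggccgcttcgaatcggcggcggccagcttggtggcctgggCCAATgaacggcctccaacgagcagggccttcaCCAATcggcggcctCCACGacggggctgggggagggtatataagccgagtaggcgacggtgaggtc
FOS: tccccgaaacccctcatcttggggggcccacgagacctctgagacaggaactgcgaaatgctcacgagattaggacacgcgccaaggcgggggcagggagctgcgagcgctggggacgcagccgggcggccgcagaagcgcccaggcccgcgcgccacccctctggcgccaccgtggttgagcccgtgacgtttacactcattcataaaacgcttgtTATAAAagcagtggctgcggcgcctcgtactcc
CHAC1: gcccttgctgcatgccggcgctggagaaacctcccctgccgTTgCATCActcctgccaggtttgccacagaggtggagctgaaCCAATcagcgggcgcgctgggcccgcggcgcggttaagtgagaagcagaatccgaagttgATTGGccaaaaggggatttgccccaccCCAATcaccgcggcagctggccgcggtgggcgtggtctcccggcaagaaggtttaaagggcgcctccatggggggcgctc
The H2BC21 window is chr1:149886683-149886932 on the minus strand and holds TATAAA at -30 to -25 and, on the opposite strand, at -212 to -207, and 3 CCAAT boxes. The HSPA5 window, chr9:125241344-125241593 on the minus strand, holds the ER stress element at -66 to -48, counted from the start, 4 CCAAT boxes and an AP-1 match at -184 to -178 that shares 1 base with a CCAAT box. The FOS window, chr14:75278578-75278827 on the plus strand, holds TATAAA at -33 to -28. The CHAC1 window, chr15:40953221-40953470 on the plus strand, holds a CARE on its minus strand at -209 to -202 and 3 CCAAT boxes.

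The ER stress element letters were found in 22 of 27305 promoters of the table (0.1%) and in 8 of 36 promoters (22.2%) of the ER unfolded protein response list. They stood in 16 of 13047 promoters of tested genes (0.1%). Only 3 of 655 promoters of genes called higher in the interaction (0.5%) and 1 of 911 of genes called lower (0.1%) held them. TATAAA was found in 21 of 33 promoters (63.6%) of replication-dependent histones, in 11.1% of all 27305 promoters and in 5.5% of the 13047 of tested genes. Among genes called higher in the interaction the share with TATAAA was 11.3%, or 8.9% without the histones, and among genes called lower it was 3.5%. CARE letters stood in 3 of 33 promoters (9.1%) of the ATF4 list, in 3.2% of all promoters and in 1.5% of those of tested genes. The share was 2.1% among genes called higher in the interaction and 1.3% among genes called lower. These matches describe the windows and were not tested as sites.

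Histone genes held the largest difference of all. H2BC21, an H2B gene at chr1:149884459-149886682, had 7446, 8442 and 3989 normalised reads in methionase cells at 24 h, against 219.4, 194.4 and 183.7 in vector cells at 24 h. At 12 h it had 158.8, 207.9 and 170.2 in methionase cells, against 147.9, 124.9 and 137.3 in vector cells. The groups did not overlap at either time, and methionase replicate 3 at 24 h was the lowest of its group. The mean was 33.3-fold the vector mean at 24 h and 1.31-fold at 12 h, and the interaction was 4.25 ± 0.23 log2 (SE; limma, adjusted p = 2.28e-11).

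The linker histone gene H1-2, whose product binds DNA between nucleosomes, had 3453, 3615 and 2415 normalised reads in methionase cells at 24 h, against 417.9, 380.3 and 313.8 in vector cells. At 12 h it had 310.2, 419.6 and 300.0 in methionase cells, against 321.8, 275.2 and 266.3 in vector cells, and these groups overlapped. Its interaction was 2.63 ± 0.18 (adjusted p = 8.46e-10). H2BU1 (2.25 ± 0.32), H1-4 (1.94 ± 0.17), H2BC11 (1.85 ± 0.19), H2BC18 (1.77 ± 0.27) and H2BC4 (1.70 ± 0.18) were also among the 15 largest; the call of H2BU1 was lost with voom (adjusted p = 0.05165).

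Replication-dependent histones package newly copied DNA, and most of their messages end in a stem-loop in place of a poly-A tail. In these libraries, made from oligo-dT enriched RNA, they took 0.0812 ± 0.0173% of the reads in methionase cells at 24 h, 0.0163 ± 0.000694% in vector cells at 24 h, 0.0148 ± 0.000732% in methionase cells at 12 h and 0.0139 ± 5.03e-05% in vector cells at 12 h (SD, n = 3). A large part of the share in methionase cells at 24 h came from H2BC21 and H1-2, which averaged 6626 and 3161 normalised reads there. Of 57 replication-dependent histones in the table, 34 passed the filter. Of these, 26 were called higher and none lower, with a median of 0.79 against 0.00 over all genes tested. Voom on the recovered reads, a scale that does not shrink low values, called 22 higher and gave a median of 2.13. The filter used the mean of all libraries, so a gene with reads only in methionase cells at 24 h could pass through them. Among the 22 that also passed on the 6 vector libraries alone, 17 were higher and none lower, and with no filter 20 of all 57 were higher and none lower. The median difference was 0.79 at 24 h and 0.01 at 12 h. Histone genes are near-identical copies, so how reads were split between single members is uncertain.

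**Figure D2:**
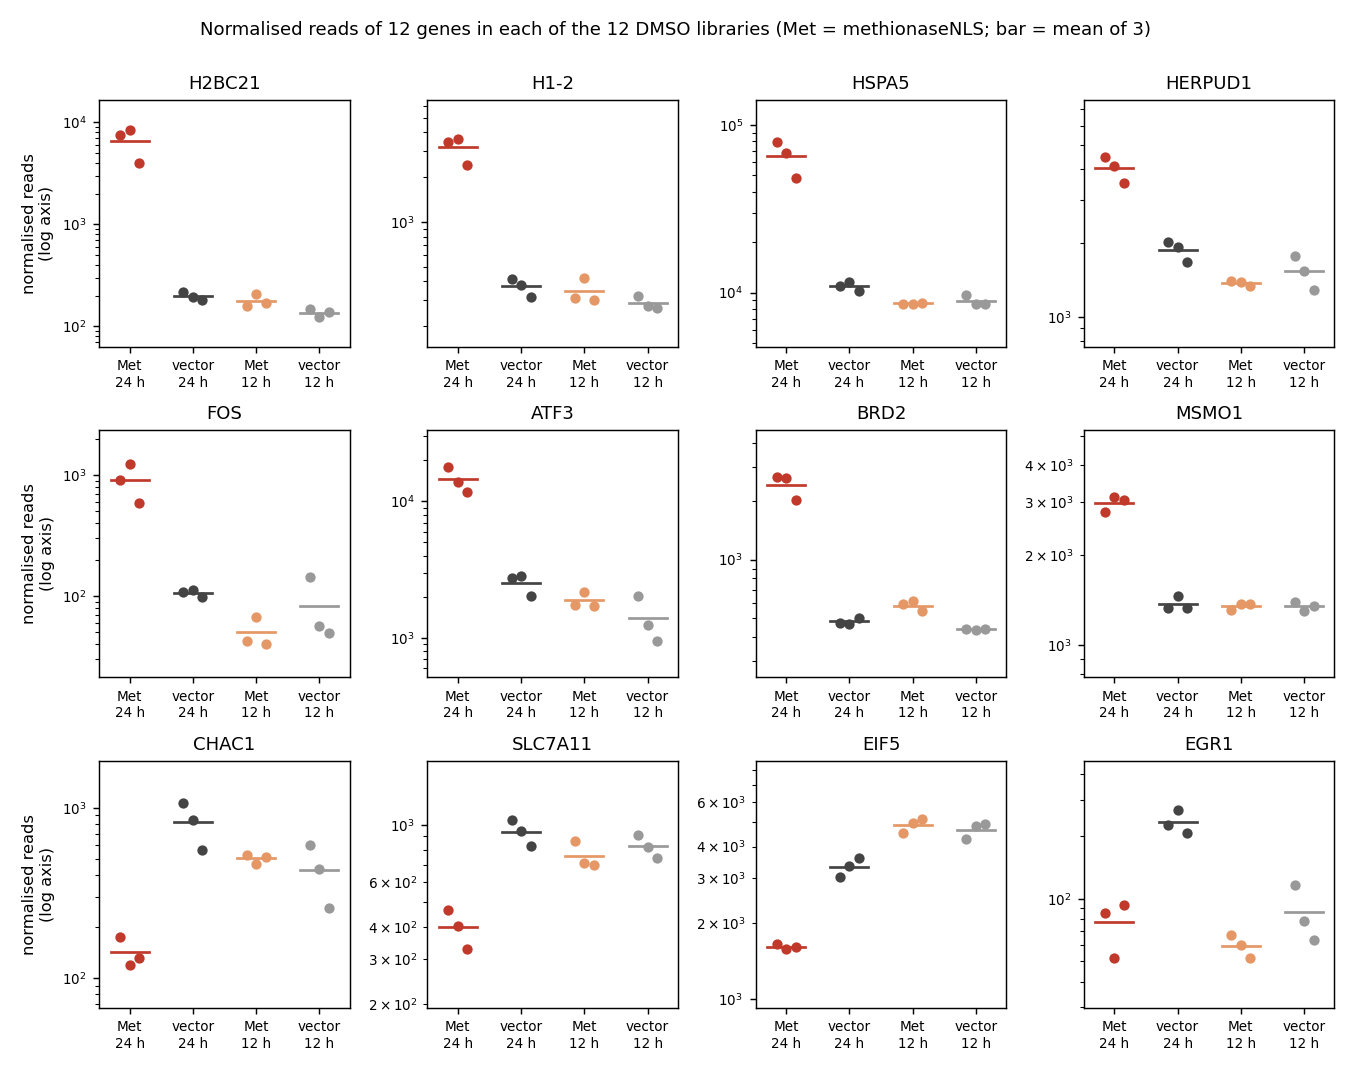
Normalised reads (vertical, log axis) of 12 genes in each of the 12 DMSO libraries, in 4 columns per panel: methionase 24 h, vector 24 h, methionase 12 h and vector 12 h; points are libraries and bars the mean of 3. H2BC21, H1-2, HSPA5, HERPUD1, FOS, ATF3, BRD2 and MSMO1 are high only in the first column, CHAC1, SLC7A11 and EIF5 are lowest there, and EGR1 is high only in the vector cells at 24 h.

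The ER chaperone gene HSPA5, which encodes BiP, the main HSP70 protein of the ER, had 79150, 67980 and 48210 normalised reads in methionase cells at 24 h, against 10990, 11560 and 10260 in vector cells. At 12 h it had 8588, 8603 and 8695 in methionase cells, against 9620, 8545 and 8486 in vector cells. The 24 h groups were far apart and the 12 h groups overlapped. HSPA5 differed 5.96-fold in mean reads at 24 h and 0.971-fold at 12 h, with an interaction of 2.58 ± 0.18 (adjusted p = 1.79e-09).

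HERPUD1, which takes part in the disposal of misfolded ER proteins, averaged 4053 ± 492.2 normalised reads in methionase cells and 1877 ± 173.8 in vector cells at 24 h, and 1377 ± 30.23 and 1537 ± 244.3 in the same cells at 12 h (SD, n = 3; interaction 1.21 ± 0.19). CALR, the chaperone calreticulin, averaged 16550 ± 580.6 and 10670 ± 309.6 at 24 h, and 10790 ± 389.7 and 11200 ± 509.3 at 12 h (interaction 0.68 ± 0.09). DNAJB9, an ER co-chaperone of BiP, had an interaction of 0.48 ± 0.12 although neither time was called on its own. Of 39 tested genes of the ER unfolded protein response, 9 were called higher and 2 lower, with a median of 0.04. Thus most members did not pass, and the median of the list lay near that of all genes. SEL1L, an adaptor of the ER ubiquitin ligase, was lower (-0.39 ± 0.10). The 2 cytosolic heat shock genes with the lowest adjusted p were HSPA1B (1.63 ± 0.29), already higher at 12 h (1.03) and more so at 24 h (2.66), and CHORDC1, a co-chaperone of HSP90 (0.62 ± 0.11). HSPA1A is a nearly identical neighbour of HSPA1B, and reads may have been divided between them. In that list 5 of 27 tested genes were higher and none lower, with 11 higher under equal library medians and 8 with voom.

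Immediate early genes, which cells switch on within minutes of stress or growth signals without new protein synthesis, were called higher in 21 of 40 and lower in 2, with a median of 0.48, or 0.78 with voom. FOS, a subunit of the transcription factor AP-1, had 907.9, 1236 and 584.9 normalised reads in methionase cells at 24 h, against 108.3, 112.5 and 98.76 in vector cells. At 12 h it had 42.72, 67.43 and 40.39 in methionase cells, against 144.1, 56.35 and 49.18 in vector cells, with overlap. The interaction was 2.71 ± 0.31 (adjusted p = 4.42e-06).

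CCN1, a secreted matrix protein, had 2368, 1624 and 1633 normalised reads in methionase cells at 24 h, against 244.9, 216.7 and 189.2 in vector cells. At 12 h it had 222.9, 204.2 and 204.8, against 193.4, 165.3 and 189.3, and the groups did not overlap at either time (interaction 2.55 ± 0.27). ATF3, a stress-induced transcription factor, had 17930, 13940 and 11650 at 24 h, against 2744, 2833 and 2023 in vector cells, and 1747, 2179 and 1726 at 12 h, against 2019, 1241 and 952.9. ATF3 moved with time in vector cells as well, by 0.86, and by 2.87 in methionase cells (interaction 2.01 ± 0.31). DUSP1, a phosphatase that switches off MAP kinases (1.89 ± 0.25), the nuclear receptors NR4A2 (1.71 ± 0.23) and NR4A1 (1.68 ± 0.22), and IER2 (0.87 ± 0.09) were called at 24 h and not at 12 h.

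JUN, the partner of FOS, and RHOB, a small GTPase, belonged to the genes called at both times. JUN had 33380, 26680 and 27130 normalised reads in methionase cells at 24 h, against 6627, 7269 and 5358 in vector cells, and 8775, 12570 and 8685 at 12 h, against 6795, 5149 and 4439. Its methionase difference was 2.17 at 24 h and 0.86 at 12 h (interaction 1.30 ± 0.20), and that of RHOB 2.35 and 0.81 (1.53 ± 0.19). The groups of JUN and of RHOB did not overlap at either time. BRD2, a bromodomain protein that binds acetylated histones, also belonged there, with 2652, 2634 and 2030 in methionase cells at 24 h, against 474.4, 468.7 and 500.3 in vector cells, and 588.8, 608.8 and 542.4 at 12 h, against 439.0, 433.9 and 438.9 (interaction 1.80 ± 0.12).

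EGR1, a zinc finger immediate early gene, went the other way. It had 85.55, 52.1 and 93.41 normalised reads in methionase cells at 24 h, against 227.6, 266.9 and 207.7 in vector cells, and 66.87, 59.94 and 51.93 at 12 h, against 117.2, 77.95 and 63.09. The vector cells at 24 h were highest and did not overlap with any other group. EGR1 was higher at 24 h than at 12 h by 0.98 in vector cells, against 0.18 in methionase cells, and its interaction was -0.80 ± 0.17 (adjusted p = 0.003633). Of 19 growth arrest genes, 7 were called higher and none lower (median 0.29). BTG1, an antiproliferative gene, averaged 4202 ± 607.5 and 1838 ± 75.22 at 24 h in methionase and vector cells, and 1460 ± 116.9 and 1629 ± 202.3 at 12 h (interaction 1.29 ± 0.12). ID3, an inhibitor of differentiation factors, was higher at 24 h than at 12 h by 0.42 in methionase cells and lower by 0.71 in vector cells (interaction 1.13 ± 0.21).

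The list for ATF4 and amino acid stress leaned to lower values in the interaction. Of 43 tested, 18 were called lower and 3 higher, with a median of -0.37, and the median methionase difference was -0.50 at 24 h and -0.08 at 12 h. CHAC1, an enzyme that degrades glutathione, had 174.3, 119.1 and 131.0 normalised reads in methionase cells at 24 h, against 1059, 841.6 and 566.7 in vector cells. At 12 h it had 528.5, 469.2 and 512.6 in methionase cells, against 601.7, 434.8 and 257.9 in vector cells, with overlap. With time it was lower by 1.42 in methionase cells and higher by 0.84 in vector cells, and its interaction of -2.26 ± 0.28 (adjusted p = 1.76e-05) was the lowest among genes with at least 50 normalised reads.

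SLC7A11, the cystine importer, had 466.2, 403.0 and 329.0 normalised reads in methionase cells at 24 h, against 1047, 947.6 and 823.3 in vector cells, and 866.5, 707.1 and 695.3 at 12 h, against 911.4, 822.7 and 741.3. Only the 24 h groups were apart (interaction -0.97 ± 0.17). ADM2, a peptide hormone gene (-1.06 ± 0.15), SESN2, a stress-induced inhibitor of mTORC1 signalling (-1.0 ± 0.20), and SLC6A9, the glycine transporter GLYT1 (-0.88 ± 0.11), were likewise called at 24 h and not at 12 h. In ADM2 the vector cells were also higher at 24 h than at 12 h, by 0.61, while the methionase cells were lower by 0.45. In SESN2 the methionase cells were lower by 0.62, and the vector difference of 0.38 did not pass (adjusted p = 0.08316).

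The members that were higher were ATF3, PPP1R15A, the phosphatase subunit that reverses the stress block on translation (1.35 ± 0.19), and TXNIP, an inhibitor of thioredoxin and glucose uptake. TXNIP had 843.7, 1576 and 2175 normalised reads in methionase cells at 24 h, against 1035, 889.9 and 661.8 in vector cells, and 479.2, 256.6 and 386.6 at 12 h, against 740.3, 633.0 and 540.9. The methionase cells were all below the vector cells at 12 h and overlapped with them at 24 h (interaction 1.38 ± 0.30, adjusted p = 0.004123). ATF4 itself averaged 25730 ± 1790 in methionase cells and 28750 ± 304.1 in vector cells at 24 h, and 22890 ± 69.81 and 25700 ± 3014 at 12 h, and was not called (adjusted p = 0.9927). DDIT3, the transcription factor CHOP (0.24 ± 0.28, adjusted p = 0.6428), and ASNS, asparagine synthetase (0.43 ± 0.20, adjusted p = 0.1853), did not pass and had positive values, unlike most of the list. TRIB3, a pseudokinase, just missed at -0.64 ± 0.21 (adjusted p = 0.05045); it was called without vector 12 h replicate 1 (0.02739), vector 24 h replicate 3 (0.01599) or methionase 24 h replicate 1 (0.02177), with array quality weights (0.00167), with only the 12 DMSO libraries (0.02771) and with the replicate block (0.04316).

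Among translation factors, EIF5, which triggers GTP hydrolysis at the start codon, had 1655, 1573 and 1609 normalised reads in methionase cells at 24 h, against 3037, 3342 and 3588 in vector cells, and 4520, 4962 and 5134 at 12 h, against 4264, 4808 and 4905. It was lower at 24 h than at 12 h in both, by 1.54 in methionase cells and by 0.48 in vector cells (interaction -1.07 ± 0.14). EEF2K, the kinase that slows elongation, had 548.6, 596.5 and 629.5 in methionase cells at 24 h, against 1321, 1373 and 1231 in vector cells, and 1217, 1133 and 1040 at 12 h, against 1202, 1139 and 1191 (interaction -0.99 ± 0.11). Cytosolic ribosomal protein genes were higher in 17 of 82 and lower in 1 (median 0.28), among them RPL24 (0.62 ± 0.09) and RPL36A (0.69 ± 0.13). That count depended on scaling, with 29 higher and none lower under equal library medians and 6 higher and 1 lower under quantile normalization. Ribosome biogenesis genes were lower in 7 of 39 and higher in none, or lower in 2 under equal library medians. POLR1C, a subunit shared by RNA polymerases I and III, was one of the 7 (-0.38 ± 0.08).

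The remaining largest decreases were SLC16A13, a monocarboxylate transporter gene (-1.13 ± 0.15), the pseudogene CENPBD1P (-1.05 ± 0.15), LCMT2, a tRNA-modifying methyltransferase gene (-1.03 ± 0.17), B3GALT6, a galactosyltransferase of proteoglycan synthesis (-0.99 ± 0.16), the calcium channel subunit CACNG8 (-0.95 ± 0.18), the divergent transcript BAIAP2-DT (-0.94 ± 0.12), the small GTPase RAB36 (-0.93 ± 0.11) and INTS5, a subunit of the Integrator complex that processes small nuclear RNAs (-0.91 ± 0.13). INTS5 alone among them was called at 12 h too. Each library of methionase cells at 24 h was below all other 9 libraries in each of these 8 genes. The 8 were picked as largest decreases from the same libraries, so this separation describes them and tests nothing. MTND2P28 (-1.02 ± 0.33, adjusted p = 0.04279), a pseudogene on chromosome 1 of a mitochondrial gene, was the other one of the 15. Reads may have been divided between MTND2P28 and that mitochondrial gene. The call of MTND2P28 was lost under 12 of 21 alternatives, with adjusted p up to 0.1454 without vector 12 h replicate 1. SLIT2, a secreted axon guidance protein, was the only one of the 15 largest increases outside the histone, ER, immediate early and bromodomain genes above, with 29970, 27280 and 17020 in methionase cells at 24 h, against 5600, 5802 and 5237 in vector cells, and 7877, 9787 and 8079 at 12 h, against 7389, 6736 and 6147 (1.76 ± 0.19).

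Genes of the methionine cycle and polyamines were called in 6 of 33, with 1 higher and 5 lower and a median of -0.06. SAT1, which acetylates polyamines for export or breakdown, had 6610, 5406 and 4119 normalised reads in methionase cells at 24 h, against 1215, 1352 and 1314 in vector cells, and 1072, 1186 and 1182 at 12 h, against 969.0, 794.6 and 679.2. The groups did not overlap at either time, and SAT1 also moved with time in vector cells (0.63, against 2.12 in methionase cells; interaction 1.5 ± 0.19). SHMT1, a serine hydroxymethyltransferase, was called lower (-0.32 ± 0.08). MAT2A, which makes S-adenosylmethionine, had 2946, 4811 and 5309 in methionase cells at 24 h, against 5167, 4844 and 6405, and 4079, 3471 and 4170 at 12 h, against 3759, 5199 and 5203. The replicates of MAT2A spread widely and its interaction was -0.10 ± 0.24 (adjusted p = 0.8424). AMD1, which commits S-adenosylmethionine to polyamines, was lower at both times (-0.53 at 24 h and -0.27 at 12 h) and its interaction was not called (-0.25 ± 0.09, adjusted p = 0.07856), though it was under quantile normalization (0.01922), with array quality weights (0.0296) and with only the 12 DMSO libraries (0.02095).

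Of the enzymes that use or remove methyl groups, arginine methyltransferases were called lower in 4 of 13 and higher in none. PRMT6 averaged 726.4 ± 64.92 and 1367 ± 26 normalised reads at 24 h in methionase and vector cells, and 1297 ± 46.61 and 1309 ± 132.2 at 12 h (interaction -0.83 ± 0.10). PRMT9 (-0.59 ± 0.10) and PRMT7 (-0.50 ± 0.09) were called as well. The median of the list was 0.05, opposite in sign to its calls. Histone lysine methyltransferases split, with 3 higher and 3 lower of 35; under equal library medians they were 5 and 1. SETD7, an H3K4 methyltransferase, was lower (-0.70 ± 0.10), and NSD3 (0.39 ± 0.10) and PRDM10 (0.56 ± 0.14) were higher. In the DNA methylation list 4 of 17 were higher and 3 lower. The higher included GADD45A (0.80 ± 0.18) and GADD45B (0.82 ± 0.13), which are not methylation enzymes, and GADD45B also stood in the growth arrest list. TET1, which oxidises methylcytosine, averaged 927.1 ± 53.42 and 482.9 ± 66.47 at 24 h, and 631.1 ± 80.39 and 580.6 ± 49.79 at 12 h (0.74 ± 0.13). TDG, which excises the oxidised bases, was lower (-0.47 ± 0.11). In the list of histone lysine demethylases 2 of 21 were higher and none lower, and the share called, 9.5%, was below the 11.7% over all genes. The 2 were JMJD6 (0.41 ± 0.10), a related protein better known as a lysyl hydroxylase, and KDM6B (0.34 ± 0.11). The call of KDM6B was lost under 10 of 21 alternatives.

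**Figure D3:**
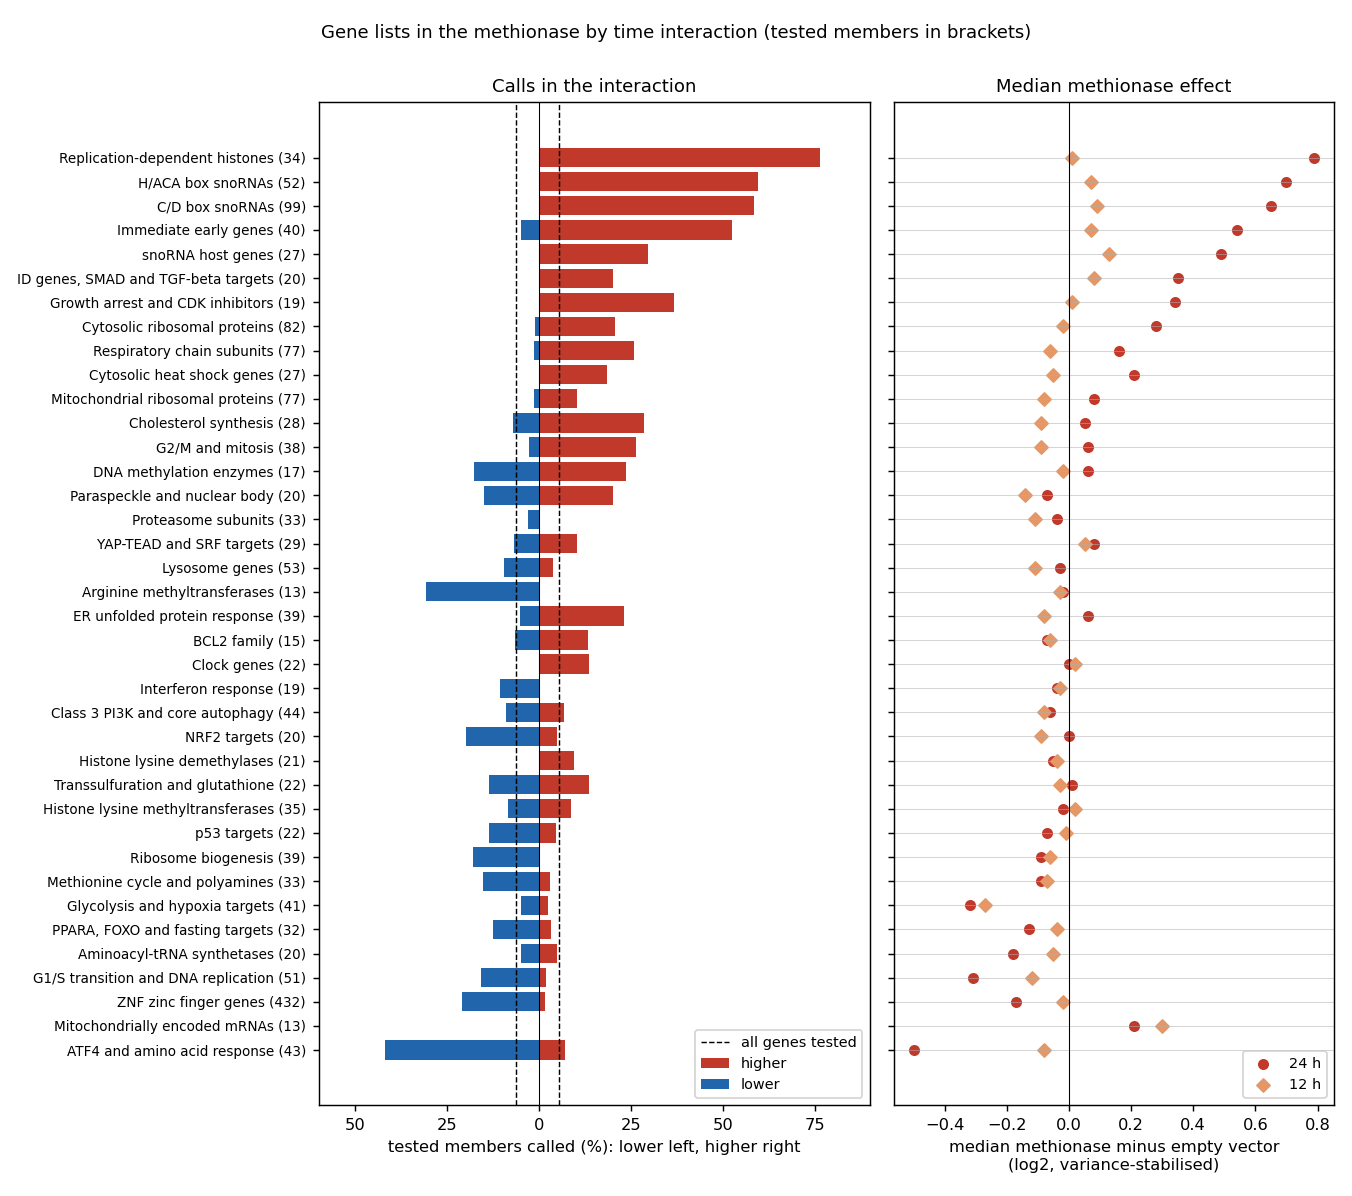
Left, share of each list's tested members called lower (blue, to the left) or higher (red, to the right) in the interaction, with dashed lines at the shares of all genes tested (6.33% lower and 5.33% higher). Right, the list's median methionase minus vector difference at 24 h (circles) and at 12 h (diamonds) in log2. Histones, snoRNAs and immediate early genes lie far right and the ATF4 list far left at 24 h, with 12 h medians near 0, while glycolysis and hypoxia targets have low medians at both times (-0.32 and -0.27).

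Cholesterol synthesis genes were called higher in 8 of 28 and lower in 2 (median 0.13). MSMO1, a sterol demethylation enzyme, had 2793, 3129 and 3049 normalised reads in methionase cells at 24 h, against 1330, 1461 and 1335 in vector cells, and 1307, 1371 and 1377 at 12 h, against 1396, 1306 and 1355. Only the methionase cells at 24 h stood apart (interaction 1.07 ± 0.09, adjusted p = 3.09e-08). IDI1, the isopentenyl diphosphate isomerase (1.05 ± 0.13), and SQLE, squalene epoxidase (0.70 ± 0.10), were called higher. LSS, lanosterol synthase (-0.47 ± 0.12), and SREBF1, a lipogenic transcription factor (-0.41 ± 0.10), were called lower.

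In the cell cycle lists, G2/M genes were higher in 10 of 38 and lower in 1 (median 0.10; 6 higher under quantile normalization), and G1/S genes were lower in 8 of 51 and higher in 1 (median -0.12). CKS2, a cofactor of cyclin-dependent kinases, had 5223, 7236 and 6151 normalised reads in methionase cells at 24 h, against 2200, 2530 and 2252 in vector cells, and 2574, 2547 and 2682 at 12 h, against 2424, 2667 and 2667 (interaction 1.36 ± 0.12). UBE2C (0.48 ± 0.10) and AURKA (0.46 ± 0.09), both of mitosis, were smaller. BRCA1, of DNA repair (-0.62 ± 0.08), and the pocket protein RBL1 (-0.52 ± 0.11) led the lower G1/S genes, and RRM2, a subunit of ribonucleotide reductase, was the exception at 0.40 ± 0.08.

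Glycolysis genes and hypoxia targets differed from the vector at 24 h without an interaction in most cases. At 24 h 29 of 41 were called lower and none higher, at 12 h 12 of them were lower and none higher, and the interaction called 1 higher and 2 lower. SLC2A1, the glucose transporter GLUT1, had 595.6, 557.2 and 529.0 normalised reads in methionase cells at 24 h, against 1227, 1411 and 1377 in vector cells, and 615.8, 659.3 and 683.8 at 12 h, against 1575, 1168 and 1153. The groups did not overlap at either time. Its methionase difference was -1.14 at 24 h and -0.90 at 12 h, with an interaction of -0.25 ± 0.13 (adjusted p = 0.2337), or adjusted p = 0.03109 without vector 12 h replicate 1.

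In the class 3 PI3K and autophagy list, 3 of 44 were higher and 4 lower, or 3 and 1 under equal library medians. The share called was 15.9%, against 11.7% over all genes, and the median of the list was 0.0. PIK3C3, which encodes VPS34, had 419.2, 418.9 and 399.0 normalised reads in methionase cells at 24 h, against 658.3, 703.0 and 690.4 in vector cells, and 595.3, 595.7 and 566.4 at 12 h, against 673.3, 733.5 and 706.1 (interaction -0.40 ± 0.09, adjusted p = 0.004255). The groups did not overlap at either time. GABARAPL1, an ATG8-type autophagosome protein, was higher (0.80 ± 0.17). Of 53 lysosome genes 2 were higher and 5 lower, a share of 13.2% near the 11.7% over all genes, and the 3 with the lowest adjusted p were subunits of the proton pump: ATP6V0A2 (-0.48 ± 0.10), ATP6V1B2 (-0.40 ± 0.09) and ATP6V0A1 (-0.38 ± 0.09). Under equal library medians the lysosome list had 6 higher and 5 lower.

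In a list of 20 paraspeckle and nuclear body genes, 4 were called higher and 3 lower (median 0.08), or 2 and 3 with voom. The list thus had no common direction, and SFPQ (-0.58 ± 0.10) and PSPC1 (-0.44 ± 0.10) were among the lower. ZNF zinc finger genes, mostly transcription repressors, were lower in 91 of 432 and higher in 7 (median -0.13), with ZNF268 (-0.82 ± 0.11), ZNF629 (-0.76 ± 0.10) and ZNF778 (-0.73 ± 0.11) leading and ZNF449 (0.72 ± 0.17) and ZNF143 (0.51 ± 0.11) against them. Respiratory chain subunits encoded in the nucleus were higher in 20 of 77 and lower in 1 (median 0.21; 12 higher under quantile normalization and 29 under equal library medians), such as ATP5ME (0.60 ± 0.15) and COX6C (0.47 ± 0.09); no mitochondrially encoded mRNA of 13 was called. The mitochondrial mRNAs took 3.56 ± 1.30% of reads in methionase cells at 24 h, against 2.91 ± 0.874% in vector cells, and 2.32 ± 0.607% at 12 h, against 1.82 ± 0.597%.

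Small nucleolar RNAs (snoRNAs), guides for the modification of ribosomal RNA, were the gene type most often called. Of 161 tested, 90 (55.9%) were higher and none lower. This class was singled out after its values had been seen. Among those that passed the filter on the 6 vector libraries alone, 43 of 72 C/D box and 28 of 43 H/ACA box snoRNAs were higher and none lower. With voom 39 of 99 tested C/D box snoRNAs were higher, against 58 on the deposited scale. Mature snoRNAs carry no poly-A tail and are released from introns of host genes, so in oligo-dT libraries their reads come from molecules that the enrichment retained. They took 0.0531 ± 0.0175% of reads in methionase cells at 24 h, 0.0145 ± 0.00314% in vector cells at 24 h, 0.0184 ± 0.00107% in methionase cells at 12 h and 0.0144 ± 0.00196% in vector cells at 12 h. Mitochondrial ribosomal RNA took 1.487 ± 0.5356%, 0.5481 ± 0.09559%, 0.3548 ± 0.02955% and 0.2401 ± 0.04524% in the same order of groups; it was highest in the group where the shares of snoRNAs and histones were highest, and its part in their differences was not tested.

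Of the 161, 155 lay within 78 tested host genes, of which 14 were called higher and none lower. The snoRNAs with a host had a median of 0.61, against 0.25 for the hosts, and 120 stood above their host. All 90 called snoRNAs had a host, and in 51 cases the host was not called. Up to 11 snoRNAs shared a host, so the same host could enter the 120 or the 51 more than once. It counted only once in the median of the hosts. Both the 51 and the 120 include SNORA48 (0.95), SNORA67 (0.59) and SNORD10 (0.80). Their host was set to the read-through gene SENP3-EIF4A1 (0.01), whose value need not be that of EIF4A1 itself. SNHG3, a non-coding host gene, averaged 7682 ± 1130 normalised reads in methionase cells and 2789 ± 348.6 in vector cells at 24 h, and 3052 ± 113.5 and 2650 ± 81.8 at 12 h (interaction 1.23 ± 0.13). SNORA73B, which lies within it, had 140.1, 204.2 and 76.15 in methionase cells at 24 h, against 11.84, 10.23 and 15.69 in vector cells, and 12.07, 19.67 and 15.39 at 12 h, against 12.09, 13.15 and 17.63 (interaction 1.47 ± 0.22). The host list had 8 of 27 higher and none lower, SNHG10 (0.87 ± 0.11) and SNHG1 (0.90 ± 0.15) among them. Reads that cover both a snoRNA and its host cannot be told apart here, and as for histones, snoRNAs could pass the filter through the methionase cells alone.

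Which arm moved with time was read from the 24 h minus 12 h differences within each vector. Methionase cells differed between the times in 7058 genes (39.8%), and vector cells in 2039 (11.5%). Among the 2071 interaction genes, time was called in methionase cells alone for 1744, in vector cells alone for 106, in both in the same direction for 119, in both in opposite directions for 28 and in neither for 74. The 106 held 65 higher and 41 lower genes. CHORDC1 was one of them, with 1699, 2076 and 1755 normalised reads in methionase cells at 24 h, against 1075, 1214 and 1235 in vector cells, and 1612, 1861 and 1747 at 12 h, against 1661, 1724 and 1858. Only the vector cells at 24 h were low, by 0.54 against 12 h. CSTB, a protease inhibitor (0.41 ± 0.08), CDC20, an activator of the anaphase-promoting complex (0.47 ± 0.09), RBM25, a splicing regulator (0.47 ± 0.10), SRP14, of the signal recognition particle (0.41 ± 0.09), and the pseudogene PTMAP2 (0.61 ± 0.12) had the same pattern, with vector differences of -0.39, -0.32, -0.35, -0.26 and -0.42 in that order.

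**Figure D4:**
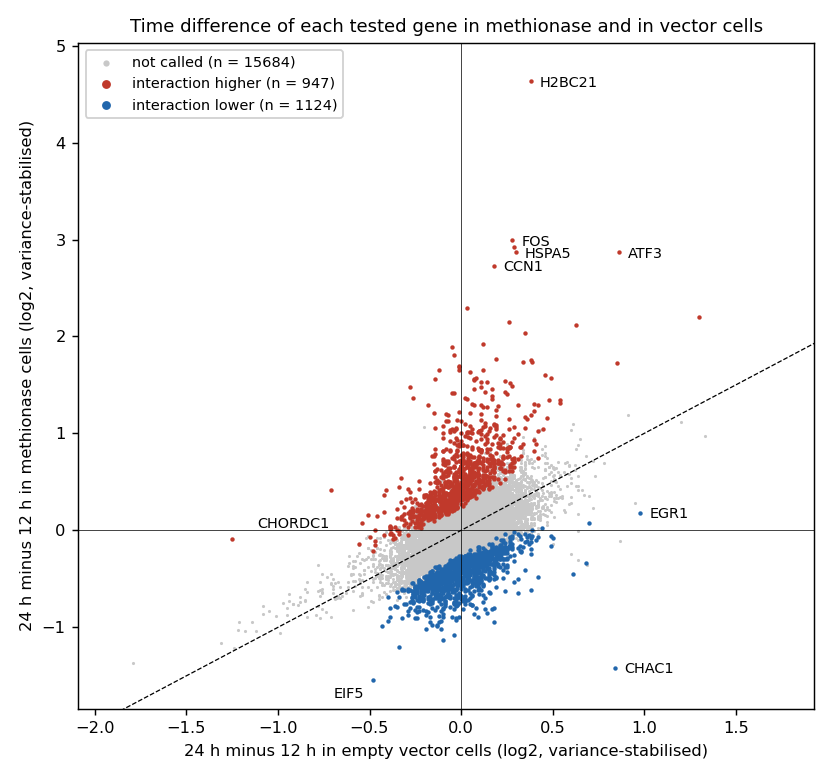
Difference of 24 h minus 12 h in methionase cells (vertical axis) against the same difference in empty vector cells (horizontal axis), both in log2 on the variance-stabilised scale, for each of 17755 tested genes; red and blue mark genes called higher and lower in the interaction, and the dashed line marks equal differences. Most coloured genes lie near 0 on the horizontal axis, whereas EGR1 (0.98 in vector cells, 0.18 in methionase cells) and CHORDC1 (-0.54 and 0.08) lie off it, and CHAC1 moved in opposite directions.

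The 12 h calls behind the smaller patterns were unstable, with 2 to 148 higher and 16 to 301 lower genes when single libraries were left out. Genes called at 12 h alone included KLF15, a metabolic transcription factor, which had 216.0, 186.1 and 212.2 normalised reads in methionase cells at 24 h, against 247.7, 239.9 and 240.9 in vector cells, and 334.4, 370.9 and 357.8 at 12 h, against 303.2, 272.4 and 249.6 (interaction -0.48 ± 0.11). Its groups did not overlap at either time, with methionase cells above the vector at 12 h and below it at 24 h, where the difference of -0.19 was not called. The pseudogene RNF216P1 had methionase differences of 0.08 at 24 h and -0.27 at 12 h (interaction 0.35 ± 0.09).

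Protein-coding genes of different length took different shares of the calls. Of 5 equal groups by longest transcript, the shortest (207 to 2002 bases) had 9.40% called higher and 1.99% lower, and the next to longest (4074 to 5844 bases) had 2.32% higher and 11% lower. Genes called higher had a median longest transcript of 2382.5 bases and 6 exons, those called lower 4273.5 bases and 10 exons, and all tested protein-coding genes 3451 bases and 9 exons. Genes with 1 exon were higher in 14% and lower in 10.5%, and without the histones in 7.34% and 11.6%. Long non-coding RNAs were higher in 6.03% of 2622 and lower in 1.87%. The 20 most abundant genes took 11.3 ± 1.05% of reads in methionase cells at 24 h, 8.99 ± 0.513% in vector cells at 24 h, 7.89 ± 0.383% in methionase cells at 12 h and 7.56 ± 0.332% in vector cells at 12 h; the part of read composition in these shares was not tested.

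**Figure D5:**
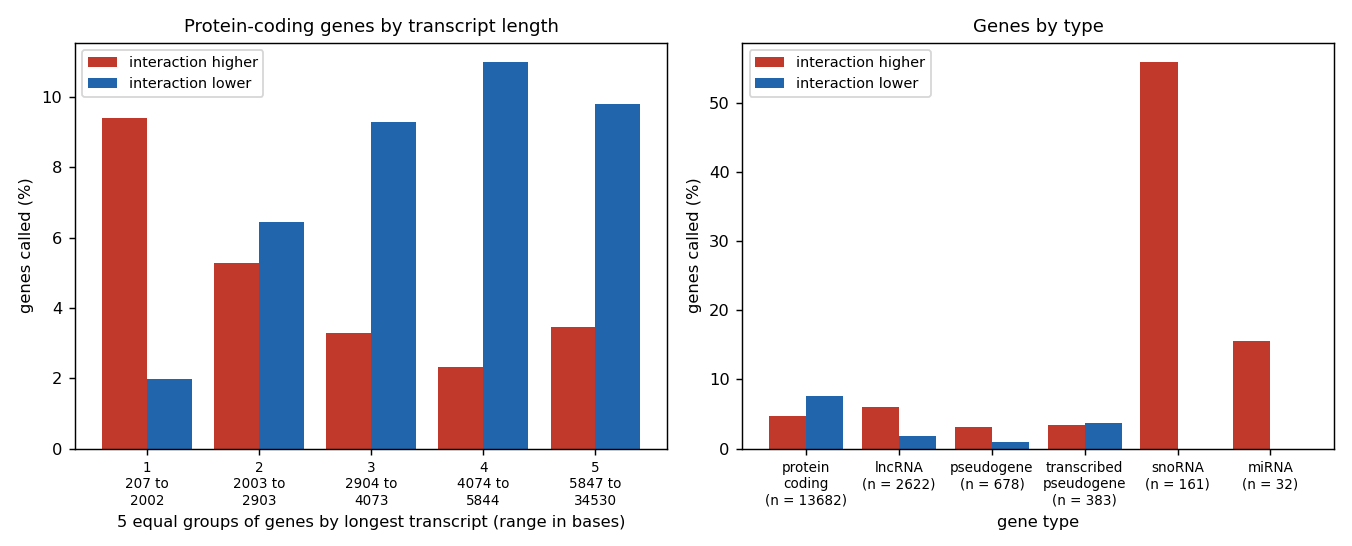
Percent of tested genes called higher (red) or lower (blue) in the interaction, for protein-coding genes in 5 equal groups by longest transcript (left) and for 6 gene types (right). The share called higher is 9.40% in the shortest group and 3.47% in the longest, the share called lower 1.99% and 9.81%, and snoRNAs stand out at 55.9% higher.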

How the data were processed

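Poly-A RNA of HEK293T cells was enriched with oligo-dT beads and made into dUTP-marked paired-end libraries, per the labels' protocols. The submitters' processing notes name hg38 and the tools STAR 2.7.10b, featureCounts, limma and DESeq2. The annotation and the strand setting of the counts are not given in the sources used here, and overlapping antisense genes may share reads. The deposited table holds variance-stabilised log2 values, the lowest being 5.4487. Of its 37097 lines, 1 named no gene (at most 0.00216% of a library's reads) and was left out.

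The transformation was undone to give reads, and 100% of values lay within 0.01 of a whole read (largest distance 2.6e-08). Normalised reads are these divided by the size factors (0.94 to 1.1 in the 12 DMSO libraries); they are not per length and compare samples, not genes. No 2 libraries of a group were copies by a chi-square per gene.

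The deposited log2 values of all 18 libraries entered a limma fit (version 3.58.1, R 4.3.3) with a mean for each of 6 groups and an empirical Bayes variance trend. Genes needed a mean over all libraries of at least 0.5 above the lowest value, and p-values were adjusted by Benjamini-Hochberg over 17755 genes within a comparison. This scale understates differences of genes with few reads; a difference is printed with its SE. Alternatives were no filter, a stricter filter at 1, quantile normalization, equal library medians, no variance trend, array quality weights, only the 12 DMSO libraries, a replicate block, voom on the recovered reads, and each of the 12 libraries left out in turn. The fit was tested on simulated data.

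The comparison, the 36 gene lists and the naming rule were chosen with earlier results of these data known, and give no independent support. Named by rule were genes called in the interaction with a symbol and a group mean of at least 50 normalised reads: the 15 largest differences each way, in each list the called genes with the lowest adjusted p and those against its majority, the leading genes of each pattern, and 25 genes followed throughout. Some genes that the rule picks are not reported here. The snoRNA classes and SNORA73B were chosen after their values were seen. Gene types and places came from the RefSeq table of GRCh38.p14 (36455 of 37096 genes matched), exons and transcript lengths from GENCODE 29. Lists are described by counts and medians, with no test of the list.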

Additional observations from a re-analysis of the deposited data

Results flagged for a closer look

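Methionase effects called in opposite directions at the 2 times, with the interaction also called, were found in 2 genes. ARL6IP1, which shapes ER membranes, had 4952, 4945 and 4773 normalised reads in methionase cells at 24 h, against 4439, 4300 and 4472 in vector cells, and 3912, 3962 and 4161 at 12 h, against 4531, 4779 and 4827 (interaction 0.38 ± 0.07, limma, adjusted p = 0.001503). PNRC1, a nuclear receptor coregulator, had 1129, 1197 and 988.0 in methionase cells at 24 h, against 875.0, 838.8 and 899.9 in vector cells, and 708.6, 636.9 and 746.3 at 12 h, against 1053, 875.3 and 841.5 (interaction 0.68 ± 0.12, adjusted p = 0.000819). In each gene the groups did not overlap at either time, with methionase cells above the vector at 24 h and below it at 12 h. The interaction was called under all 21 alternatives. The calls at single times were weaker. ARL6IP1 differed by 0.15 at 24 h and -0.23 at 12 h (limma, adjusted p = 0.02519 and 0.02208). PNRC1 differed by 0.31 and -0.36 (limma, adjusted p = 0.00595 and 0.02788). The 21 alternatives refer to the interaction and not to these calls, and calls at 12 h were unstable when single libraries were left out.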

How the results depend on the processing

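Of 152 genes picked by rule and called in the interaction, 121 were called under all 21 alternatives and 31 lost the call under at least 1. Array quality weights gave 1729 higher and 1888 lower interaction genes and equal library medians 1431 and 722, against 947 and 1124; leaving out single libraries gave 582 to 1154 and 694 to 1259, both lowest without methionase 12 h replicate 1. The cause was not tested. Without the filter 1431 interaction genes were called in all, 1326 of them shared, and the number tested grew to 37096. Voom called 2110, 390 of them at 1 log2 or more, against 91 on the deposited scale. At an unadjusted p under 0.05 the interaction held 4559 genes. Counts at 24 h stayed within 1.5 times under every alternative. At 12 h, against 121 higher and 264 lower, the counts were 58 and 120 with no filter, 732 and 1403 with array quality weights, 245 and 571 with only the 12 DMSO libraries, 2 to 148 and 16 to 301 with single libraries left out, and 95 lower with quantile normalization and 144 lower without the variance trend. The interaction of 3 genes that were not called changed sign. ATF4 was 0.05 with equal library medians and -0.07 to 0.09 with single libraries left out, positive without vector 12 h replicate 3 (0.09), vector 24 h replicate 3 (0.00) or methionase 24 h replicate 3 (0.05). The lowest value of ATF4 under any of the 21 alternatives was -0.29. MAT2A was 0.01 with array quality weights and -0.26 to 0.15, positive without vector 12 h replicate 1 (0.05), vector 24 h replicate 3 (0.02) or methionase 24 h replicate 1 (0.15). DDIT3 was -0.01 to 0.48, negative without vector 12 h replicate 1.

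The deviations of 18 pairs of libraries with the same replicate number correlated at -0.308 to 0.30, with 5 over 0.1. Libraries with different numbers were not compared, so these values cannot show whether replicate numbers paired the samples. A replicate block gave 928 higher and 1081 lower interaction genes, 1933 of the 2009 shared with the fit without it. With 3 libraries a group, a gene that did not pass is not shown to have had equal methionase effects at both times.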
